A study of Mus musculus with 8 samples.

Results

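Notch signalling genes were followed in cultured mouse bone marrow MSCs through 10 genes: the receptor genes *Notch1*, *Notch2*, *Notch3* and *Notch4*, the ligand genes *Jag1* and *Jag2*, and the target genes *Hes1*, *Hey1*, *Hey2* and *Heyl*. The genes were chosen by their symbols, with earlier results of these data known. All 10 were found among the 24346 genes of the deposited table. The clearest differences were in *Hes1*, which fell after osteogenic induction in both genotypes and fell further in *Dnmt3l* KO MSCs, and in *Jag1*, which was lower in *Dnmt3l* KO than in WT MSCs before induction and not after it. *Notch2* was the most abundant receptor gene in every library, and no difference of it passed the test.

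RNA was sequenced in 8 libraries from 4 groups of 2, with WT and *Dnmt3l* KO MSCs, both of C57BL/6 background, each in an undifferentiated and a differentiating state. Undifferentiated MSCs were taken at passage 4 from medium with 20% serum. Differentiating MSCs, also at passage 4, had spent 3 days in osteogenic medium with 10% serum, 0.1 μM dexamethasone (a glucocorticoid), 10 mM β-glycerophosphate and 50 μM ascorbic acid 2-phosphate. The medium, serum and time thus changed together. Cell density may differ too, since the paper describes starting induction once cells were confluent. The density of undifferentiated MSCs when taken is not stated. The part of each cannot be told apart. Cells came from young adult female mice, with WT littermates as controls, and the paper describes mixing the cells of several mice of a genotype. It is not stated if both libraries of a group had their own mix, so that the p-values measure only the spread between these libraries, which may be technical. The KO allele is carried from the germline on by every cell of the animal, and no library here has the gene restored.

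Notch receptors are membrane proteins that are activated by ligands of the Jagged and Delta-like families on neighbouring cells. Ligand binding lets the protease ADAM10 and then the γ-secretase complex release the intracellular part of the receptor, which joins the DNA-binding protein RBPJ and a Mastermind coactivator in the nucleus. *Hes1* and the *Hey* genes, the best known targets, encode basic helix-loop-helix repressors. In the skeleton, Notch signalling is known for keeping mesenchymal progenitors undifferentiated, and HES and HEY proteins can restrain RUNX2, the main transcription factor of osteoblasts.

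Values are RPKM, reads divided by transcript length and by a read total of the library, so that levels can be set side by side between genes. How this total was scaled between libraries is not given in the sources used here. From the smallest steps between low values, it was estimated at 48.0 to 67.0 M reads, the highest in replicate 1 of differentiating WT MSCs. The estimate need not equal the mapped reads. The libraries of a group differed beyond sampling noise in every group, most in differentiating KO MSCs (chi-square of 27.05 per gene on estimated reads, against 7.16 to 12.4 in the other groups). The targeted gene, *Dnmt3l*, was at 1.56 and 1.09 RPKM in the undifferentiated WT and 0.845 and 0.830 RPKM in the differentiating WT libraries, and is listed at 0 in all KO libraries. Differences were tested in limma on log2(RPKM + 0.1) over the 15342 genes whose mean over the libraries reached 0.1 RPKM, and a difference passed at an adjusted p-value (Benjamini-Hochberg over all genes tested) under 0.05. Of the Notch genes, 8 entered the test. *Jag2* and *Heyl* did not reach the minimum, and their values are given without a test, except for *Jag2* under the alternative with no minimum. Since the pseudocount of 0.1 is added to each value, log2 differences understate the change of low genes.

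In undifferentiated WT MSCs, *Hes1* had the highest level of the 10 genes, with a mean of 34.3 RPKM, followed by *Jag1* with 16.6 and *Notch2* with 16.1 RPKM, whose libraries overlapped. *Notch3* (2.03 RPKM) and *Notch1* (1.90 RPKM) came next and overlapped too, ahead of *Hey1* (0.898 RPKM), *Hey2* (0.812 RPKM) and *Notch4* (0.552 RPKM). *Jag2* and *Heyl* were at 0.0181 and 0.00460 RPKM. In differentiating KO MSCs the order at the top was different: *Jag1* (18.7 RPKM) and *Notch2* (18.3 RPKM), with overlapping libraries, stood above *Hes1* (3.96 RPKM). Among all genes of the table, *Hes1* lay at percentile 89.6 in undifferentiated WT and at percentile 61.4 in differentiating KO MSCs.

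**Figure D1:**
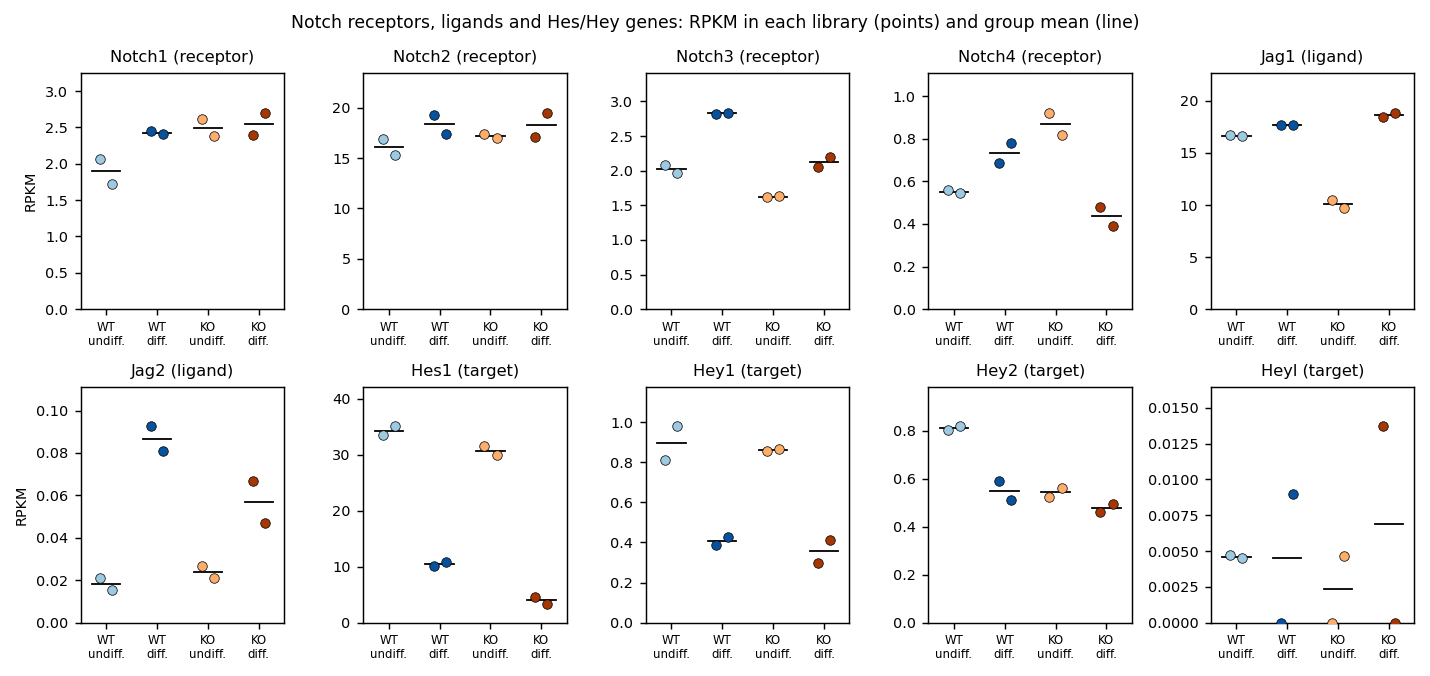
RPKM of the 10 Notch genes in each of the 8 libraries (points; vertical axes start at 0 and differ between genes) with the mean of each group (lines). *Hes1* falls from 29.9 to 35.2 RPKM in undifferentiated libraries to 10.1 and 10.8 RPKM in differentiating WT and 4.52 and 3.40 RPKM in differentiating KO libraries, and the undifferentiated KO libraries stand apart at *Jag1*.

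*Notch2* (chromosome 3 of mm10, 98013527 to 98150361, plus strand) encodes the receptor with the highest RNA level here. Its libraries were at 16.9 and 15.3 RPKM in undifferentiated WT, 19.3 and 17.4 RPKM in differentiating WT, 17.4 and 17.0 RPKM in undifferentiated KO, and 17.1 and 19.5 RPKM in differentiating KO MSCs. WT and KO libraries overlapped in differentiating MSCs, and in undifferentiated MSCs the KO values lay just above both WT values. The genotype difference was 0.10 on the log2 scale before induction (95% interval -0.11 to 0.31) and -0.00289 after it (95% interval -0.21 to 0.21), and with induction *Notch2* differed by 0.19 in WT (95% interval -0.02 to 0.39) and by 0.09 in KO MSCs (95% interval -0.12 to 0.29). In each library *Notch2* made up between 74.3% and 78.7% of the summed RPKM of the 4 receptor genes, which itself ranged from 19.5 to 25.3 RPKM.

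**Figure D2:**
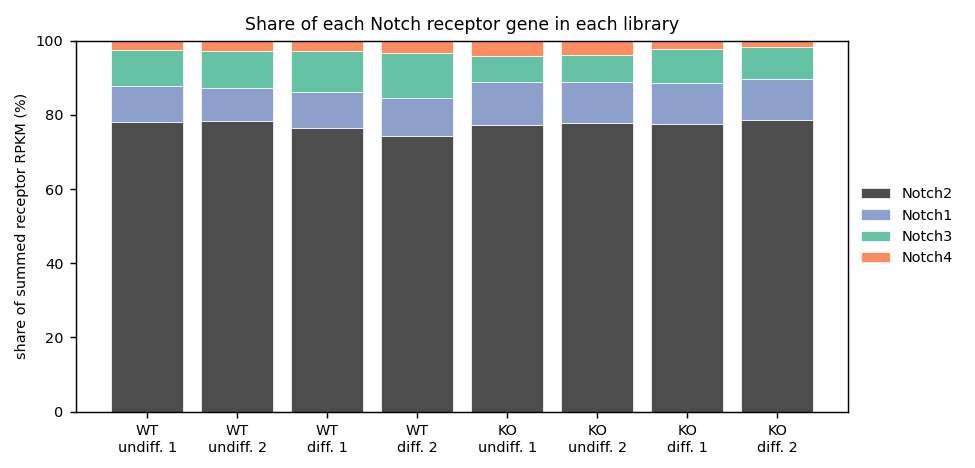
Share of each receptor gene in the summed RPKM of the 4 Notch receptor genes, in percent, for each library (WT and KO, undifferentiated and differentiating, replicates 1 and 2). *Notch2* takes 74.3% to 78.7% of the sum in every library, while *Notch4* ranges from 1.57% to 4.08%.

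*Notch4* (chromosome 17, 34564268 to 34588503, plus strand), a receptor best known from endothelial cells, was a low gene whose genotype difference changed direction with the state. Its values were 0.559 and 0.545 RPKM in undifferentiated WT and 0.923 and 0.818 RPKM in undifferentiated KO libraries, with the KO libraries above both WT libraries. After induction the order was the opposite, with 0.686 and 0.780 RPKM in WT and 0.480 and 0.391 RPKM in KO libraries. The log2 difference between KO and WT was 0.57 before induction (standard error 0.13, adjusted p = 0.019 from limma) and -0.64 after it (standard error 0.13, adjusted p = 0.011), and the interaction, which is the genotype difference after induction minus that before it, was -1.21 (standard error 0.18, adjusted p = 0.0042). Within KO MSCs *Notch4* fell with induction (-0.86, adjusted p = 0.0011), and within WT MSCs it was higher at the edge of the threshold (0.35, adjusted p = 0.0498). These values rest on an estimated 123 to 294 reads per library. The call before induction was lost without any 1 of the 4 undifferentiated libraries (adjusted p = 0.055 to 0.096), the call after it without replicate 2 of differentiating WT MSCs or when only those libraries were fitted (adjusted p = 0.055 to 0.064), and the rise in WT MSCs under 12 of 17 alternatives, whereas the fall in KO MSCs and the interaction held under all alternatives run.

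*Notch3* (chromosome 17, 32120820 to 32166852, minus strand) encodes a receptor known from mural cells, the pericytes and smooth muscle cells of vessels. It was at 2.09 and 1.96 RPKM in undifferentiated WT, 2.82 and 2.84 RPKM in differentiating WT, 1.62 and 1.63 RPKM in undifferentiated KO, and 2.06 and 2.199 RPKM in differentiating KO MSCs. In each state both KO libraries lay below both WT libraries, and in each genotype both differentiating libraries lay above both undifferentiated ones. *Notch3* rose with induction by 0.46 in WT (standard error 0.06, adjusted p = 8.5e-04) and by 0.37 in KO MSCs (adjusted p = 0.0017). It was lower in KO than in WT by a log2 difference of -0.30 before (adjusted p = 0.014) and -0.40 after induction (adjusted p = 0.0046), and the interaction did not separate the 2 differences (-0.09, 95% interval -0.30 to 0.11). The difference before induction missed the threshold without replicate 1 of undifferentiated WT or without either undifferentiated KO library (adjusted p = 0.067 to 0.072).

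*Notch1* (chromosome 2, 26457903 to 26516663, minus strand), the receptor most studied in blood and skeletal progenitors, was at 2.07 and 1.72 RPKM in undifferentiated WT libraries, below the 6 other libraries. Those stood at 2.45 and 2.40 RPKM in differentiating WT, 2.62 and 2.38 RPKM in undifferentiated KO, and 2.39 and 2.70 RPKM in differentiating KO MSCs. *Notch1* was higher in KO than in WT before induction (log2 difference 0.38, adjusted p = 0.039) and rose with induction in WT MSCs (0.35, adjusted p = 0.030). In differentiating MSCs the genotypes differed by 0.06 (95% interval -0.20 to 0.33). The first of these calls was lost under 9 of 17 alternatives (adjusted p up to 0.18), among them a replicate block and each undifferentiated library left out except replicate 1 of WT, as well as each differentiating WT library. The second was lost under 6 (adjusted p up to 0.41), among them median centring and quantile normalization, replicate 2 of undifferentiated WT left out, and either differentiating WT library left out.

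*Jag1* (chromosome 2, 137081456 to 137116644, minus strand) encodes a Jagged ligand that is also made by stromal and osteoblastic cells of the bone marrow. It was at 16.7 and 16.6 RPKM in undifferentiated WT and at 10.5 and 9.67 RPKM in undifferentiated KO libraries, or 16.6 ± 0.0777 and 10.1 ± 0.552 RPKM (mean ± SD, n = 2 each). In differentiating MSCs the values were 17.7 and 17.7 RPKM in WT and 18.5 and 18.9 RPKM in KO libraries. The undifferentiated KO libraries were thus the lowest, while the other 6 lay between 16.6 and 18.9 RPKM. The log2 difference between KO and WT was -0.72 before induction (standard error 0.04, adjusted p = 3.6e-04 from limma) and 0.08 after it (95% interval -0.03 to 0.18), and the interaction was 0.80 (standard error 0.06, adjusted p = 7.5e-04). With induction *Jag1* rose in KO MSCs by 0.89 (adjusted p = 7.6e-06), to a mean ratio of 1.86, and differed by 0.09 in WT MSCs (95% interval -0.02 to 0.19). The lower level in undifferentiated KO MSCs held under all 17 alternatives run (log2 difference -0.78 to -0.67, adjusted p 2.8e-04 to 0.0094), and so did the interaction under its 16 (adjusted p up to 0.0070).

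*Jag2* (chromosome 12, 112907819 to 112929776, minus strand), the gene of the other Jagged ligand, was near the limit of the data. It was at 0.0211 and 0.0152 RPKM in undifferentiated WT and 0.0269 and 0.0209 RPKM in undifferentiated KO libraries, or an estimated 3.79 to 6.34 reads. In differentiating libraries it was at 0.0928 and 0.0807 RPKM in WT and 0.0670 and 0.0471 RPKM in KO MSCs, an estimated 11.4 to 30.5 reads. All 4 differentiating libraries lay above all 4 undifferentiated ones, and every library lay far below its *Jag1* level.

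*Hes1* (chromosome 16, 30064384 to 30067796, plus strand), the repressor gene that responds fastest to Notch in many cells and also answers to other signals, moved most. Its values were 33.5 and 35.2 RPKM in undifferentiated WT and 31.6 and 29.9 RPKM in undifferentiated KO libraries. After induction they were 10.1 and 10.8 RPKM in WT and 4.52 and 3.40 RPKM in KO libraries, with no overlap between any of the differentiating and undifferentiated libraries or between the genotypes in differentiating MSCs. The fall with induction was -1.71 on the log2 scale in WT (standard error 0.13, adjusted p = 8.0e-05 from limma), to 0.305 of the undifferentiated mean, and -2.94 in KO MSCs (standard error 0.13, adjusted p = 5.1e-06), to 0.129 of it. In differentiating MSCs *Hes1* was lower in KO than in WT by -1.39 (standard error 0.13, adjusted p = 0.0012), a ratio of 0.378, whereas before induction the difference was -0.16 (95% interval -0.47 to 0.15, adjusted p = 0.38). The interaction of -1.23 (standard error 0.18, adjusted p = 0.0040) gives the size of the additional fall in KO MSCs. These calls held under all alternatives run, with adjusted p up to 0.031 for the genotype difference after induction. Without replicate 1 or 2 of differentiating KO MSCs, the pair that differed most, the *Hes1* difference between KO and WT after induction was -1.59 or -1.19 and the interaction -1.44 or -1.03.

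*Hey1* (chromosome 3, 8663359 to 8667256, minus strand), a repressor gene and Notch target that BMP also induces, fell with induction to overlapping levels in both genotypes. It was at 0.813 and 0.983 RPKM in undifferentiated WT and 0.859 and 0.865 RPKM in undifferentiated KO libraries, and at 0.387 and 0.427 RPKM in differentiating WT and 0.297 and 0.413 RPKM in differentiating KO libraries. The log2 difference with induction was -0.97 in WT (standard error 0.16, adjusted p = 0.0022) and -1.09 in KO MSCs (adjusted p = 9.7e-04). The genotypes overlapped in both states, and their difference had 95% intervals of -0.43 to 0.34 before and -0.55 to 0.22 after induction. Each value rests on an estimated 33.1 to 111 reads.

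*Hey2* (chromosome 10, 30832359 to 30842801, minus strand), a target gene best known from heart and vessels, was highest in undifferentiated WT MSCs, with 0.803 and 0.820 RPKM. The undifferentiated KO libraries were at 0.525 and 0.562 RPKM, the differentiating WT libraries at 0.588 and 0.509 RPKM and the differentiating KO libraries at 0.460 and 0.494 RPKM. *Hey2* was lower in KO than in WT before induction (log2 difference -0.50, standard error 0.10, adjusted p = 0.016) and fell with induction in WT MSCs (-0.49, adjusted p = 0.0070). In KO MSCs the difference with induction was -0.16 (95% interval -0.42 to 0.10), and the interaction did not separate the genotypes (0.34, 95% interval -0.03 to 0.70). The genotype call was lost without any 1 of the 4 undifferentiated libraries (adjusted p = 0.054 to 0.076). *Heyl* (chromosome 4, 123233556 to 123249875, plus strand) was at 0.00470 and 0.00450 RPKM in undifferentiated WT, at 0 and 0.00897 RPKM in differentiating WT, at 0 and 0.00465 RPKM in undifferentiated KO, and at 0.0137 and 0 RPKM in differentiating KO libraries. At the estimated depth these values are those of 0 to 3 reads on its longest transcript, and 3 reads would give 0.0103 to 0.0144 RPKM, so that no difference of *Heyl* was detectable.

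**Figure D3:**
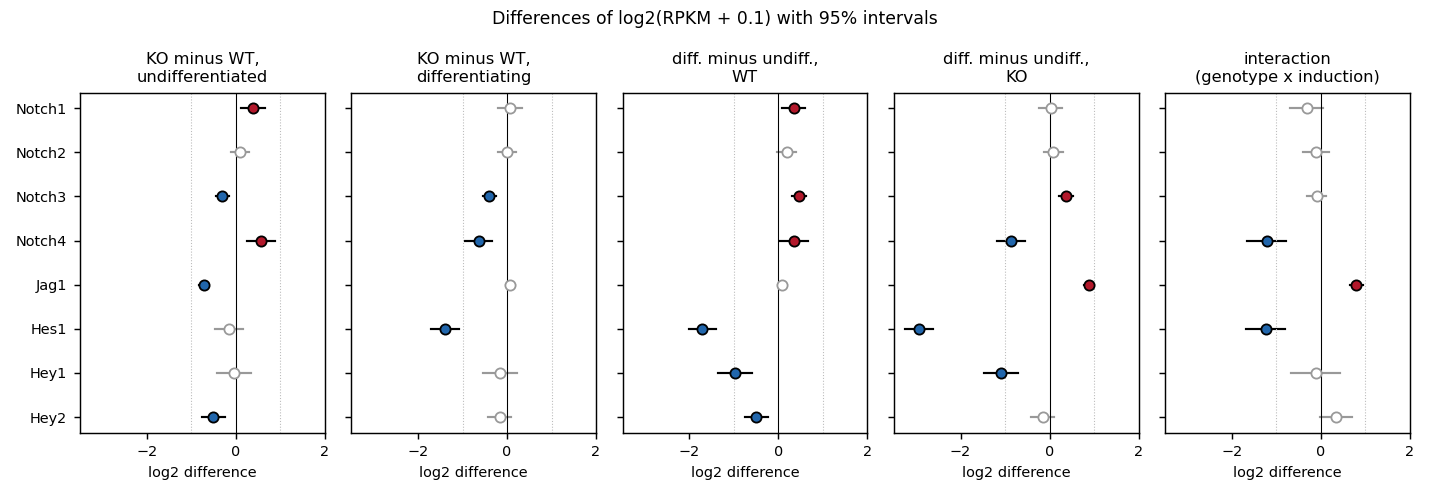
Differences of log2(RPKM + 0.1) for the 8 tested Notch genes (points) with 95% intervals (lines) in the 4 pairwise comparisons and the interaction; filled points passed an adjusted p of 0.05 in limma (red higher, blue lower), dotted lines mark a 2-fold difference. *Hes1* passes the 2-fold line in 4 of the 5 panels, and *Jag1* and *Notch4* have interactions of 0.80 and -1.21.

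Counted together, 5 of the 8 tested Notch genes passed the test between KO and WT in undifferentiated MSCs, 2 higher (*Notch1*, *Notch4*) and 3 lower (*Notch3*, *Jag1*, *Hey2*), where 32.2% of all genes tested passed (14.7% higher and 17.5% lower). In differentiating MSCs 3 passed, all lower in KO (*Notch3*, *Notch4*, *Hes1*), where 40.7% of all genes passed (17.8% higher and 22.9% lower). With induction 6 of 8 passed in WT, 3 higher (*Notch1*, *Notch3*, *Notch4*) and 3 lower (*Hes1*, *Hey1*, *Hey2*), beside 64.4% of all genes (31.6% higher and 32.8% lower). In KO MSCs 5 of 8 passed, 2 higher (*Notch3*, *Jag1*) and 3 lower (*Notch4*, *Hes1*, *Hey1*), beside 72.9% of all genes (36.4% higher and 36.6% lower). For the interaction 3 of 8 passed, 1 higher (*Jag1*) and 2 lower (*Notch4*, *Hes1*), beside 39.4% of all genes (19.4% higher and 20% lower). The shares of the 8 genes lay near these backgrounds, except for 62.5% in the first comparison, and are given as a description. Without 1 of the 4 undifferentiated libraries, 1 or 2 of the Notch genes passed between KO and WT in undifferentiated MSCs, beside 14.9% to 18.9% of all genes. With a 2-fold limit added, the counts were 0 between KO and WT in undifferentiated MSCs in limma (0 also at an unadjusted p under 0.05) beside 1.7% of all genes, and 1 (*Hes1*) in differentiating MSCs beside 3.3%. With induction they were 1 (*Hes1*) in WT beside 14.3% and 2 (*Hes1*, *Hey1*) in KO MSCs beside 22.9%. For *Hey1* this is no genotype difference: its mean RPKM fell to a ratio of 0.453 in WT and 0.412 in KO MSCs. Its interaction did not pass (-0.12, adjusted p = 0.70 from limma). For the interaction the count was 2 (*Hes1*, *Notch4*) beside 6.17%. The median log2 difference of the 8 genes was -0.10, -0.17, 0.14 and -0.07 in the 4 pairwise comparisons in this order, beside medians over all genes tested within 0.01 of 0.

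The promoter sequences of 7 of the 10 genes were at hand in RefSeq for GRCm38.p6, the assembly of mm10. Each holds 250 bases before and 50 after the start of a RefSeq transcript. That start need not be the start of the gene span given above. The windows of *Notch1* and *Jag2* lie wholly inside these spans. *Hes1*, *Hey1* and *Heyl* were not matched. The site that RBPJ binds was searched as GTGGGAA on both strands, and its core TGGGAA, which lies within it, was searched as well. Of the 7 promoters that of *Hey2* held both, each at 2 places, and the other 6 held neither. By comparison, 6.38% of all 32851 promoters of the table hold GTGGGAA and 25.6% hold the core, while 0.256% hold GTGGGAA and 3.79% the core at 2 or more places. The site CACGCG, to which HES and HEY repressors can bind, was found in the promoters of *Notch2*, *Jag1* and *Jag2*, at 2 places in that of *Jag1*. It is held by 9.27% of all promoters, and at 2 or more places by 1.67% of all promoters. The E-box CACGTG, another site of this protein family, was found in 0 of the 7, against 7.15% of all promoters. A match is a description of these letters and does not show binding. The *Hey2* stretch is shown as the Notch target with matches, and the *Jag1* stretch as the ligand gene with the genotype difference. The *Hey2* stretch spans chr10:30842778-30843033 and the *Jag1* stretch chr2:137116521-137116770, both on the minus strand, and capitals mark GTGGGAA (read as TTCCCAC on the other strand) in *Hey2* and CACGCG (read as CGCGTG on the other strand) in *Jag1*.
Hey2: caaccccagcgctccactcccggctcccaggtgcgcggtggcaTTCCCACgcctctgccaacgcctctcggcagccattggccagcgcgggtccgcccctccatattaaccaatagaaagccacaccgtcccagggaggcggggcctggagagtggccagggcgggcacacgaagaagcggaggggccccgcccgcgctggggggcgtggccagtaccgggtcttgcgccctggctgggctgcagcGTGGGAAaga
Jag1: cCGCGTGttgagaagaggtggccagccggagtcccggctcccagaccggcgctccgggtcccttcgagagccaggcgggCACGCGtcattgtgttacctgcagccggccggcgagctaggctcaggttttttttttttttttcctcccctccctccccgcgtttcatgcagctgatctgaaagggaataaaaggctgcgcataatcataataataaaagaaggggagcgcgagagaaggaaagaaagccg

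In *Hey2* the first match lay at -207 to -201 and the second at -4 to 3 relative to the first base of the RefSeq transcript, which is counted as 1. In *Jag1* the matches lay at -249 to -244 and at -171 to -166. The promoters of the 7 genes had a GC content of 55.7% (*Jag1*) to 86.0% (*Jag2*), all above the median of 52.7% over all promoters.

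The rest of the pathway was followed with 60 further genes in 5 classes, of which 49 entered the test. With induction 36 passed in WT (29 higher, 7 lower), beside 64.4% of all genes (31.6% higher and 32.8% lower). In KO MSCs 36 passed (26 higher, 10 lower), beside 72.9% of all genes (36.4% higher and 36.6% lower). Between KO and WT 17 passed in undifferentiated MSCs (8 higher, 9 lower), beside 32.2% (14.7% higher and 17.5% lower). In differentiating MSCs 19 passed (13 higher, 6 lower), beside 40.7% (17.8% higher and 22.9% lower). An interaction was found for 21 (14 higher, 7 lower), beside 39.4% (19.4% higher and 20% lower). The median log2 difference with induction was 0.24 in WT and 0.22 in KO MSCs, where the medians over all genes tested showed next to no difference.

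Among the other ligand genes, *Dll4*, whose product is the main ligand of endothelial cells, was at 0 to 0.0125 RPKM. *Dll1*, a Delta-like ligand gene, was at 0.126 and 0.115 RPKM in undifferentiated WT and 0.180 and 0.283 RPKM in differentiating WT, 0.0964 and 0.106 RPKM in undifferentiated KO and 0.375 and 0.313 RPKM in differentiating KO libraries. It rose with induction in KO MSCs (1.14, adjusted p = 0.0024) and by less in WT MSCs (0.57, adjusted p = 0.045), the latter call lost under 10 of 16 alternatives (adjusted p up to 0.35), among them either undifferentiated library of either genotype and replicate 2 of differentiating WT left out. The interaction of *Dll1* did not pass (adjusted p = 0.16). *Dlk1*, a non-canonical ligand gene known from preadipocytes, stayed between 0.0696 and 0.203 RPKM, and no difference of it passed. Its relative *Dlk2* was at 1.16 and 1.01 RPKM in undifferentiated WT and 3.00 and 3.63 RPKM in undifferentiated KO libraries, a log2 difference of 1.53 (adjusted p = 0.0012). *Dlk2* rose with induction in WT (1.28, adjusted p = 3.8e-04), to 2.78 and 2.75 RPKM, and fell in KO MSCs (-0.52, adjusted p = 0.014), to 2.53 and 2.03 RPKM, with an interaction of -1.80 (adjusted p = 0.0017). The fall in KO MSCs missed the threshold without replicate 2 of either KO group or with only the KO libraries fitted (adjusted p = 0.056 to 0.081).

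Of the genes for processing and glycosylation, 14 of 15 were tested, and with induction 10 rose and 1 fell in WT, beside 31.6% and 32.8% of all genes, and 8 rose and 2 fell in KO MSCs, beside 36.4% and 36.6%. *Psen2*, a catalytic γ-secretase subunit gene, rose from 9.57 and 9.89 RPKM to 17.6 and 17.3 RPKM in WT and from 8.84 and 9.32 RPKM to 19.6 and 20.0 RPKM in KO libraries, with an interaction of 0.28 (adjusted p = 0.010). *Aph1c*, another γ-secretase subunit gene, rose in both genotypes (0.88 and 1.35, adjusted p = 0.0055 and 6.1e-04), at 0.101 to 0.474 RPKM. *Lfng*, which encodes a glycosyltransferase that changes how Notch answers to Jagged and Delta-like ligands, rose in WT from 9.61 and 9.30 RPKM to 16.7 and 17.9 RPKM. In KO MSCs it rose from 8.18 and 8.05 RPKM to 12.5 and 9.87 RPKM (0.45, adjusted p = 0.0093), and it was lower than in WT after induction (-0.63, adjusted p = 0.0067). For *Lfng* the rise in KO MSCs just missed the threshold without replicate 2 of undifferentiated KO (adjusted p = 0.0503), and the genotype difference without replicate 2 of differentiating WT or with only the differentiating libraries fitted (adjusted p = 0.0509 to 0.0575).

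Of the ubiquitin ligase and endocytic genes 12 of 13 were tested. *Dtx4* and *Dtx3l*, members of the Deltex family of ubiquitin ligase genes, were the 2 past 2-fold with induction, higher in both genotypes. Of all genes tested, 14.3% were past 2-fold with induction in WT and 22.9% in KO MSCs. *Dtx4* went from 1.0045 and 0.990 RPKM to 3.21 and 2.95 RPKM in WT and from 1.15 and 1.28 RPKM to 5.54 and 7.31 RPKM in KO libraries, and was higher in KO than in WT after induction (1.02, adjusted p = 0.0030). *Dtx3l* rose by 1.38 in WT and 2.13 in KO MSCs (adjusted p = 2.6e-04 and 2.4e-05). It was lower in KO MSCs before induction (-0.68, adjusted p = 0.014), with 2.62 and 2.68 RPKM against 4.20 and 4.41 RPKM in WT libraries. The interactions of *Dtx4* (0.76, adjusted p = 0.024) and *Dtx3l* (0.75, adjusted p = 0.026) were each lost under 6 of 16 alternatives, among them any 1 undifferentiated library left out, replicate 1 of differentiating WT left out and, for *Dtx4*, its replicate 2 (adjusted p up to 0.086). The lower *Dtx3l* in undifferentiated KO MSCs was lost without any 1 undifferentiated library (adjusted p = 0.060 to 0.082).

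Of the genes of the nuclear complex 19 of 20 were tested. *Rbpj*, the DNA-binding partner of the receptors, was at 37.4 and 35.7 RPKM in undifferentiated WT and fell with induction to 28.5 and 27.0 RPKM (-0.40, adjusted p = 0.0035). In KO libraries it was at 31.5 and 32.5 RPKM before and 33.7 and 38.8 RPKM after induction, above WT in differentiating MSCs (0.38, adjusted p = 0.0090), and the interaction was 0.57 (adjusted p = 0.0073). Of the coactivator genes, *Maml2* rose in WT and KO MSCs (0.84 and 0.83) and *Maml3* likewise (0.70 and 0.76), while no difference of *Maml1* passed. *Maml3* was also higher in KO than in WT before (0.38, adjusted p = 0.013 from limma) and after induction (0.44, adjusted p = 0.0069). The call before induction was lost without any 1 undifferentiated library (log2 difference 0.35 to 0.42). *Kat2b*, an acetyltransferase gene, was at 10.3 and 10.4 RPKM in undifferentiated WT and 7.34 and 7.00 RPKM in undifferentiated KO libraries, and after induction at 15.4 and 14.2 RPKM in WT and 21.2 and 22.6 RPKM in KO libraries. Its genotype difference thus changed sign, from -0.52 to 0.57 (adjusted p = 0.0019 and 0.0014), with an interaction of 1.09 (adjusted p = 6.7e-04). *Cir1*, a corepressor gene, did so too, from -0.25 to 0.53 (adjusted p = 0.019 and 0.0017). The lower *Cir1* in undifferentiated KO MSCs was lost without replicate 2 of undifferentiated WT or either undifferentiated KO library and when only the undifferentiated libraries were fitted (adjusted p = 0.055 to 0.10), and the higher *Rbpj* in differentiating KO MSCs without replicate 2 of differentiating WT or with only the differentiating libraries fitted (adjusted p = 0.061 to 0.063). Among the further target genes, *Nrarp*, a feedback inhibitor of Notch, was at 0.0510 to 0.132 RPKM and *Hes5* at 0 to 0.0545 RPKM, both below the minimum. *Hes6*, the only gene of this class that was tested, was at 11.5 to 16.0 RPKM. It was lower in KO than in WT before induction (-0.475, adjusted p = 0.0056 from limma). With induction *Hes6* fell in WT (-0.26, adjusted p = 0.020) and rose in KO MSCs (0.23, adjusted p = 0.026). Its interaction was 0.48 (adjusted p = 0.013). *Hes6* was not followed singly under the alternatives.

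**Figure D4:**
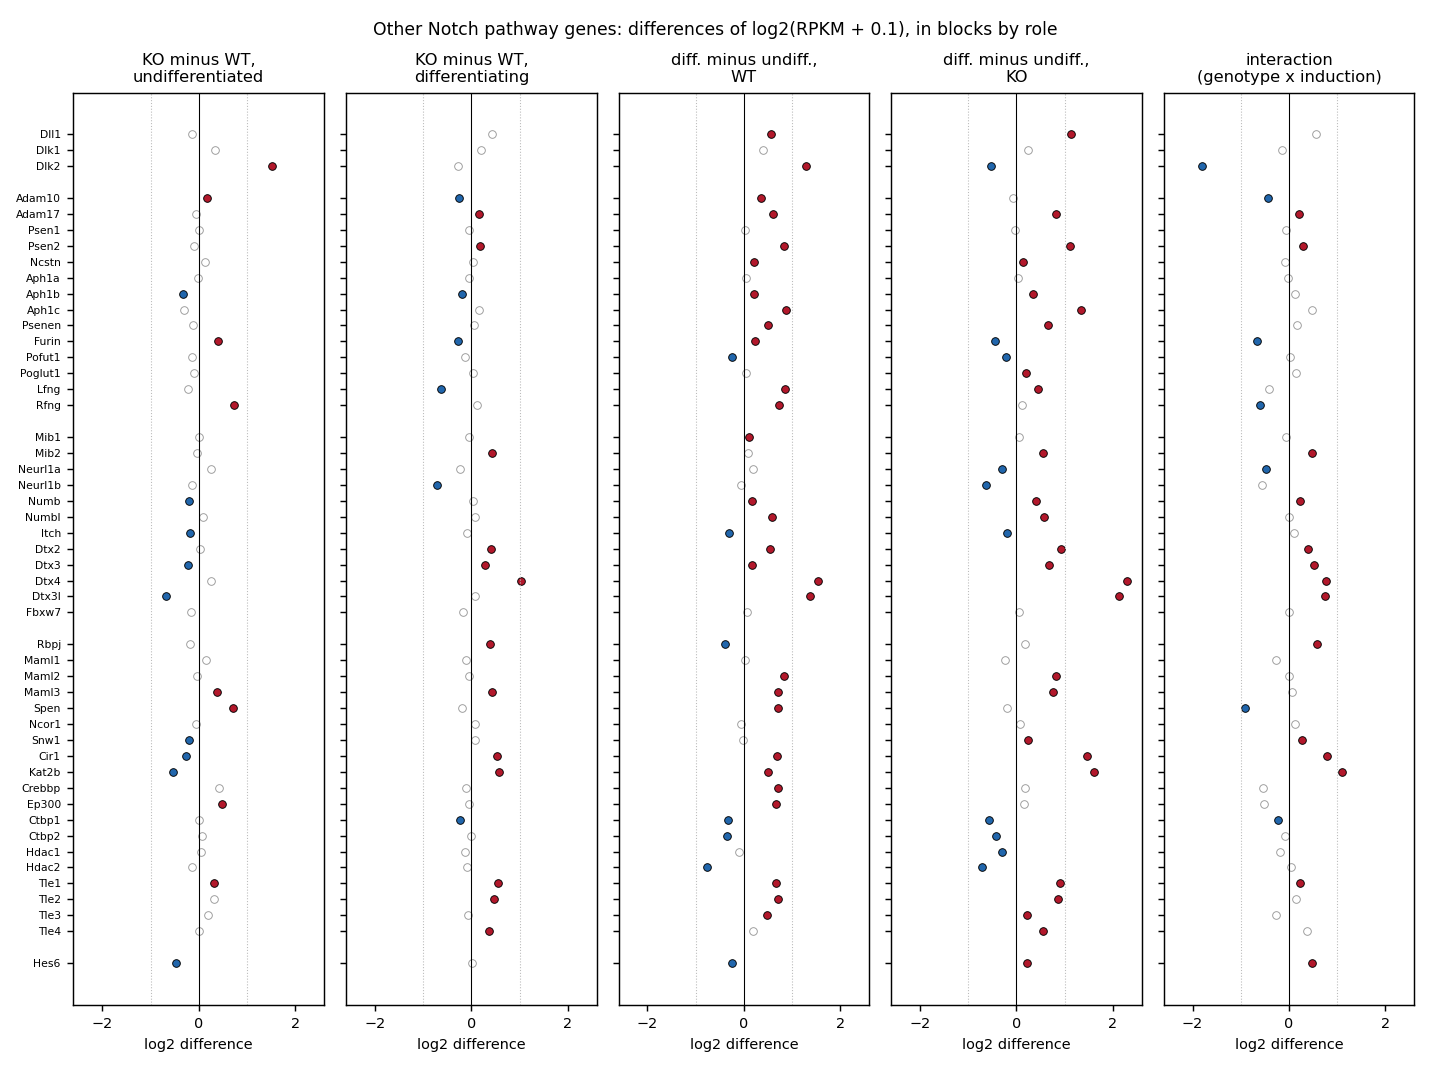
Differences of log2(RPKM + 0.1) for the 49 tested other genes of the Notch pathway (rows, in blocks from top to bottom for ligands, processing, ubiquitin ligases and endocytosis, nuclear complex, further targets) in the 4 pairwise comparisons and the interaction; filled points passed an adjusted p of 0.05 in limma (red higher, blue lower) and dotted lines mark a 2-fold difference. With induction 29 genes are higher and 7 lower in WT, beside 31.6% and 32.8% of all genes tested. *Dtx4* and *Dtx3l* lie farthest to the right with induction in KO MSCs.

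Markers of other states and cell types moved with some of these genes. Of all genes tested, 32.8% were lower with induction in WT and 36.6% in KO MSCs, and 22.9% were lower in KO than in WT after induction. In bulk RNA, fewer cells of a type and less RNA per cell cannot be told apart. All 11 proliferation genes listed (such as *Mki67* and *Top2a*) were lower after induction in both genotypes and lower in KO than in WT after induction, as *Hes1* was. Their summed level was 265 to 267 RPKM in undifferentiated WT, 151 to 163 RPKM in differentiating WT, 352 to 356 RPKM in undifferentiated KO and 72.1 to 93.4 RPKM in differentiating KO libraries. Of 10 mural and smooth muscle genes, 9 were tested, of which 6 were lower and 3 higher with induction in WT, 6 lower and 2 higher in KO, and 7 lower in KO than in WT after induction. Their sum, mostly of *Acta2* and *Tagln*, was 3628 to 3854 RPKM and 3878 to 3910 RPKM in undifferentiated WT and KO and 662 to 752 RPKM and 257 to 369 RPKM in differentiating WT and KO libraries. The part of either in the values of *Hes1*, *Hey1* and *Notch3* was not tested. Endothelial cells, in which *Notch4*, *Hey1* and *Hey2* are also expressed, had low markers: of 12 listed, *Pecam1*, *Cdh5*, *Tie1*, *Sox17* and *Sox18* were under 0.1 RPKM in every library. The sum was 1.85 to 1.92 RPKM and 2.03 to 2.08 RPKM in undifferentiated WT and KO and 3.54 to 4.12 RPKM and 4.83 to 5.37 RPKM in differentiating WT and KO libraries. Most of it came from *Esam* and *Tek* before induction and from *Tek* after it, while *Esam* was lower after induction in both genotypes. The MSCs had been depleted of CD11b+ and CD45+ cells. Of 9 macrophage and leukocyte markers 8 were found, *Cd3e* at 0 and *Lyz2* the highest in every library, and their sum was 17.4 to 18.5 RPKM and 30.001 to 34.2 RPKM in undifferentiated and differentiating WT and 8.50 to 9.30 RPKM and 13.5 to 14.5 RPKM in the corresponding KO libraries. The 10 mesenchymal markers were all found. Their sum was 1558 to 1585 RPKM and 2986 to 3058 RPKM in undifferentiated and differentiating WT libraries. In the corresponding KO libraries it was 1710 to 1717 RPKM and 3803 to 3857 RPKM. With induction 6 were higher and 4 lower in WT, beside 31.6% and 32.8% of all genes. In KO MSCs 4 were higher and 5 lower, beside 36.4% and 36.6%. Of 10 osteoblast genes, 7 were lower in KO than in WT after induction.

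Genes with the pattern most like that of the most abundant receptor, ligand and target were sought by Pearson's r of log2 values over the 8 libraries, as a description, since libraries of a group share their state and genotype. For *Hes1* they were *Ctgf* (r = 0.9997), *Trpv2* (r = 0.9995) and *Rbm3* (r = 0.9994), and 2080 genes had an r above 0.95. *Ctgf*, a matricellular gene that YAP and TGF-β induce, had means of 758 and 181 RPKM in undifferentiated and differentiating WT and 702 and 58.8 RPKM in the corresponding KO MSCs. For *Jag1* they were *Fbxo10* (r = 0.9926), *Fam49a* (r = 0.9923) and *Nipal3* (r = 0.9920), and 134 genes had an r above 0.95. *Fbxo10*, for example, had means of 4.50, 5.03, 3.13 and 5.17 RPKM in undifferentiated WT, differentiating WT, undifferentiated KO and differentiating KO MSCs. For *Notch2*, which varied little, *Hivep1* (r = 0.9717), *Slc6a18* (r = 0.9515) and *Ston1* (r = 0.9416) came first, and only 2 genes had an r above 0.95.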

How the data were processed

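Ribosomal RNA was removed, and strand-specific single-end reads were aligned to mm10 by the authors with TopHat2 (2.1.0 in the submitters' processing notes) and the iGenomes annotation. The deposited values are RPKM per gene and library that the authors computed with Cuffdiff (Cufflinks 2.2.1), with replicates not pooled. The library normalization setting is not given in the sources used here. Columns were assigned to samples by the names in their titles (0 columns without a sample). Gene positions are from GENCODE M21 and promoters from RefSeq.

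For depth, 903 genes with a single annotated transcript, all low, were used. Once their length was shortened by 200 bases, 72.2% of 3404 low values gave whole reads within 0.05 read, too few for a test of read counts. With a depth fixed in advance, 10% would do so by chance. The shortening and the depths were chosen on these same values, so that 10% is not the share expected after this choice. Reads estimated in this way cover counting error only.

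Log2(RPKM + 0.1) of the 15342 genes reaching a mean of 0.1 RPKM was fitted in limma 3.58.1 (R 4.3.3) to all 8 libraries with a mean for each of 4 groups and a variance trend (4 residual and 1.98 prior degrees of freedom), and p-values were adjusted over all genes tested. Alternatives, 17 in all, were another pseudocount, expression minimum or scaling, no variance trend, a replicate block, separate fits for each comparison, and leaving out each library in turn. Tables and figures were made in Python 3.11.15 with pandas 2.3.3 and matplotlib 3.10.9.

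The 10 members and the lists were chosen with earlier results of these data known, and 2 listed genes are not reported here. Of the other pathway genes, those past 2-fold in any comparison and 10 fixed ones (*Dll1*, *Dll4*, *Dlk1*, *Lfng*, *Rbpj*, *Maml1*, *Maml2*, *Maml3*, *Nrarp*, *Hes5*) are named. *Hes6*, the only further target gene tested, is named as well. With 2 libraries per group, an exact permutation test could not reach p = 0.05, and it cannot be told which library of a differing pair stands apart.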

Additional observations from a re-analysis of the deposited data

Results flagged for a closer look

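The genotype difference changed between undifferentiated and differentiating MSCs, by the interaction in limma with adjustment over all genes tested, for 3 of the 8 tested Notch genes: *Notch4* (-1.21, adjusted p = 0.0042), *Jag1* (0.80, adjusted p = 7.5e-04) and *Hes1* (-1.23, adjusted p = 0.0040). Among the other pathway genes named, it did so upward for *Psen2* (0.28), *Dtx4* (0.76), *Dtx3l* (0.75), *Rbpj* (0.57), *Cir1* (0.78), *Kat2b* (1.09) and *Hes6* (0.48). For *Dlk2* it changed downward (-1.80). These values are on the log2 scale, with adjusted p from 6.7e-04 to 0.026 in limma. All of these other pathway genes except *Rbpj* and *Hes6* were named for passing 2-fold in a comparison of these same data, so their number and direction are selected. Of all 49 other pathway genes tested, 21 had an interaction (14 higher, 7 lower). By comparison, 39.4% of all genes tested had an interaction (19.4% higher and 20% lower). The interactions of *Dtx4* and *Dtx3l* were lost under some alternatives, as given above.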

How the results depend on the processing

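The *Hes1* and *Jag1* calls given in the report and the interactions of *Hes1*, *Jag1* and *Notch4* held under every alternative run, and of 672 member values under alternatives 40 lost and 2 gained the call. No called value changed sign; 14 signs changed among values that missed the threshold under both settings. Gains were *Hey2* with induction in KO MSCs under quantile normalization (-0.49, adjusted p = 0.0048) and *Jag1* with induction in WT MSCs when only those libraries were fitted (adjusted p = 0.037). With no expression minimum *Jag2* rose with induction in WT (0.66, adjusted p = 0.0018) and KO MSCs (0.34, adjusted p = 0.021). These *Jag2* values rest on an estimated 3.79 to 6.34 reads in undifferentiated libraries, near the limit of the data. Leaving out a library leaves a lone sample in its group, which is assumed to vary like the others. The count of Notch genes between KO and WT in undifferentiated MSCs then ranged from 1 to 5, and those past 2-fold with induction from 1 to 2 in WT and from 1 to 2 in KO MSCs. The count in WT was 2 with a pseudocount of 0.01, with quantile normalization and with median centring. Of all 15342 genes tested, 2449, 2149 and 2188 were past 2-fold under these settings. In KO MSCs the count was 3 with quantile normalization (3484 of all genes). It was 1 with a pseudocount of 1, which shrinks low genes (2267 of all genes). With that pseudocount the interaction count was 1 (479 of all genes). Other pathway genes ranged over left-out libraries from 7 to 25 between KO and WT in undifferentiated MSCs (all genes 14.9% to 37.6%), from 11 to 20 in differentiating MSCs (20.2% to 41.2%) and from 12 to 25 for the interaction (26.4% to 41.3%). They were 11 in differentiating MSCs when only those libraries were fitted (19.8%). The undifferentiated count of 25, against 17 with all libraries, came without either differentiating KO library; the cause was not tested. Median centring moved the median of all genes with induction in WT by -0.10. The labels give replicates 1 and 2 in each group. Same-numbered libraries did not deviate together over all genes (r of -0.09 to 0.03 between groups). This cannot show if they shared mice or a preparation, since other differences between the libraries of a group could hide it. A replicate block left 4 Notch genes between KO and WT in undifferentiated MSCs, beside 25.5% of all genes (32.2% without the block). With induction in WT it left 5, beside 61.4% of all genes (64.4% without the block). The lost calls were *Notch1* and *Notch4*.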
